A study of Homo sapiens with 12 samples.

Results

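The genes described here are 8 cytochrome P450 genes that act on drugs or signalling lipids, CYP2J2, CYP2D6, CYP3A4, CYP3A5, CYP2C8, CYP2S1, CYP1A1 and CYP1B1, and POR, the reductase that supplies them with electrons. They were taken by symbol and were 9 of the 28278 gene symbols counted. CYP2J2 was chosen by its CPM values, for a large rise after hydroxychloroquine (HCQ) evolution in CCL218 alone. Its values, and their contrast between the lines, are thus a description and carry no test. CPM is the count per 1000000 counts of a library. The other 8 were chosen for their function, with earlier results of these data known.

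Poly(A) RNA was sequenced from 2 human cancer cell lines, OVCAR3, labelled ovarian cancer, and CCL218, labelled colorectal cancer. HCQ-evolved cells of each line had gone through 15 pulses of HCQ, an antimalarial that accumulates in lysosomes, each lasting 48 h, and were then kept for 7 days without drug before harvest. Control cells were passaged without HCQ. The sample titles give passage 15 for the evolved and passage 19 for the control cells, so passage number and evolution cannot be told apart. Each group held 3 libraries, labelled L, M and R, each pooled from part of a 96-well plate by plate position, called a section here. The labels do not say what else libraries of the same letter share. The authors describe a control plate and a paired plate treated with HCQ, with the pools of a plate formed by position. Plate and evolution therefore cannot be told apart either. The p-values measure the spread between sections of a plate, each a pool of wells that were passaged apart from each other. In such pools fewer cells that express a gene and less RNA per cell cannot be told apart.

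Library totals ran from 31147822 to 59965861 counts. Of 12 colorectal epithelial markers, 8 or 9 were at 1 CPM or more in all 3 libraries of each group. Their summed level was 973 to 1198 CPM in control OVCAR3, 268 to 680 in HCQ-evolved OVCAR3, 1181 to 1715 in control CCL218 and 1193 to 1248 in HCQ-evolved CCL218. Of 10 ovarian serous markers, 6 were at 1 CPM or more in every library of all 4 groups, and their sums were 397 to 665, 691 to 877, 285 to 521 and 410 to 482 CPM in the same order. The intestinal gene VIL1 was at 78.5 to 290 CPM in the libraries labelled OVCAR3 and at 160 to 202 CPM in those labelled CCL218, and the Müllerian factor PAX8 at 7.23 to 14.9 and 6.40 to 11.2 CPM. The colorectal marker KRT20 had 0 counts in control OVCAR3, and in each group 2 of the 10 ovarian markers had 0 counts. Some markers did differ between the controls by edgeR's quasi-likelihood test (adjusted p under 0.05). Of 10 colorectal markers tested, MUC2 (51.8 CPM in CCL218 against 8.77 in OVCAR3) and CEACAM5 (14.2 against 5.08) were higher in CCL218. So was 1 of 6 ovarian markers, MSLN (63.6 against 14.2), as were 0.949% of all genes. With the letter L, M or R as a block, 6 of 10 colorectal markers were called higher and 2 lower in control CCL218. Of 6 ovarian ones, 1 was called higher and 5 lower, where 36% of all genes were called. A search for genes with at least 5 CPM throughout one line and at most 1 CPM throughout the other found 0. Both marker lists were thus expressed under both line labels, and the lines are named below as they were labelled.

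Cytochrome P450 enzymes are heme proteins that insert an oxygen atom into their substrates. Most sit in the endoplasmic reticulum and receive electrons from POR, while liver and gut epithelium are their best known sites in drug clearance. CYP3A4, CYP3A5, CYP2C8 and CYP2D6 are known for removing alkyl groups from many basic drugs, HCQ among them, whereas CYP2J2 is best known for turning arachidonic acid into epoxides in heart and gut. CYP1A1, CYP1B1 and CYP2S1 are classical targets of the aryl hydrocarbon receptor (AhR).

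To show what lies upstream of the CYP2J2 start site beside the AhR target CYP1A1 and the abundant CYP2S1, the 150 bases before each start site were taken from RefSeq (GRCh38.p14), which held a window for 6 of the 9 genes. Capitals mark the AhR core element GCGTG, the GC box GGGCGG and the TATA box TATAAA, searched on both strands. The AP-1 element TGANTCA was searched too. These sequences are read 5′ to 3′ on the strand of the gene, at chr1:59926774-59926923 (minus strand) for CYP2J2, chr19:41193069-41193218 (plus strand) for CYP2S1 and chr15:74725529-74725678 (minus strand) for CYP1A1.
CYP2J2: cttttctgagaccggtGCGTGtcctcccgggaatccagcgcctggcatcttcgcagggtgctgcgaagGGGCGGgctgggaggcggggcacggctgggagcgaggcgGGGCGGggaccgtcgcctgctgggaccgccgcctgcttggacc
CYP2S1: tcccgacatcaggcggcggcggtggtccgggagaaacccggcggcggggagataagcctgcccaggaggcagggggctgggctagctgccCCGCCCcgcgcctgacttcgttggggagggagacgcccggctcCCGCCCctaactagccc
CYP1A1: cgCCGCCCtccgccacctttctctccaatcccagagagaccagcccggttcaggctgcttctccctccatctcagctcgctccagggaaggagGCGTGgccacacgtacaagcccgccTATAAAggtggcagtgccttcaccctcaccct
The CYP2J2 window was 73.3% G or C and held 1 AhR core, at base -134 from the start site, and 2 GC boxes, at -82 and -43. The CYP2S1 window held 2 GC boxes, at -60 and -17, and no AhR core. In the CYP1A1 window there was 1 AhR core at -57, 1 GC box at -148 and a TATA box at -32. Of 35116 RefSeq windows of this length, 23.5% held the AhR core, 36.8% the GC box, 6.71% the TATA box and 4.17% the AP-1 element, which none of these 3 windows held. Such matches are a description of letters only.

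CYP2J2 (ENSG00000134716, chromosome 1, 59893308 to 59926773, minus strand, hg38) was near the limit of detection in 3 groups. Its level was 0.361, 0.314 and 0.407 CPM in control OVCAR3 pools L, M and R, from 14, 10 and 22 counts, and 0.492, 0.413 and 0.384 CPM in control CCL218, from 20, 19 and 18 counts. HCQ-evolved OVCAR3 pools had 0.454, 0.656 and 0.469 CPM, from 26, 34 and 28 counts. HCQ-evolved CCL218 pools had 6.03, 7.54 and 6.87 CPM, from 294, 414 and 411 counts. All 3 HCQ-evolved CCL218 pools stood above the other 9 libraries. The mean was 6.82 ± 0.756 CPM (SD, n = 3) against 0.430 ± 0.0555 CPM in the CCL218 controls, a ratio of 15.9 and a log2 ratio of 3.99. In OVCAR3 the means were 0.526 ± 0.113 and 0.361 ± 0.0465 CPM (SD, n = 3), a ratio of 1.46. All 3 evolved OVCAR3 pools were above all 3 controls, as for 8.74% of 21434 genes with no filter on low values.

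**Figure D1:**
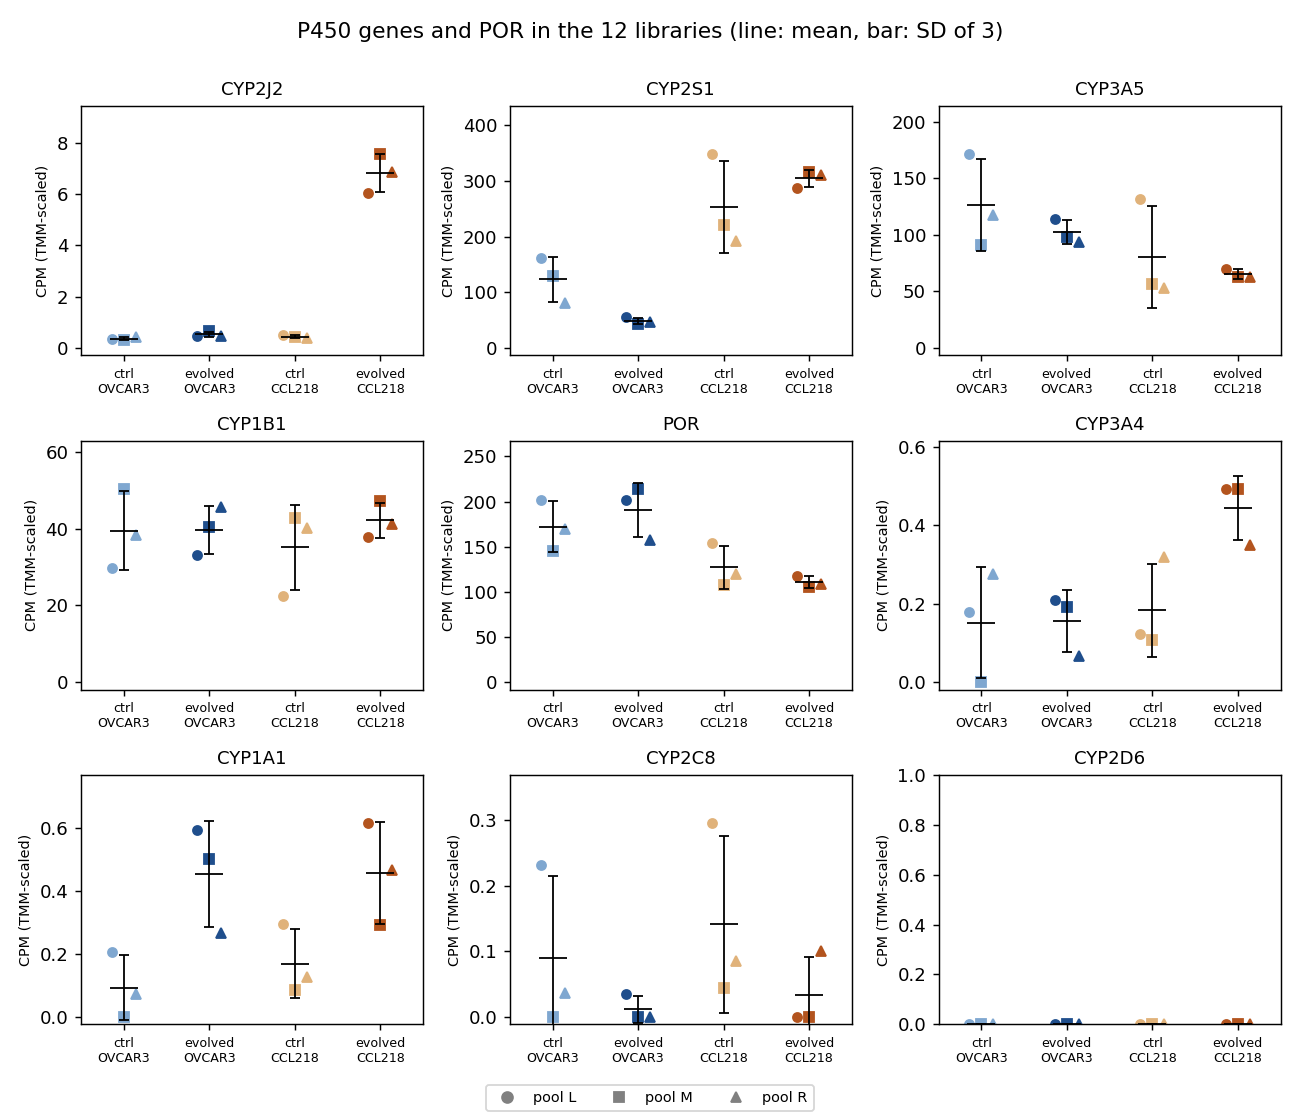
Each panel plots 1 gene in CPM scaled by TMM (trimmed mean of M values) for the 12 libraries, with the group on the horizontal axis, a point per pool (circle L, square M, triangle R), a line for the mean and a bar for the SD of 3 pools. CYP2J2 was at 6.03 to 7.54 CPM in HCQ-evolved CCL218 and at 0.314 to 0.656 CPM in every other library, CYP2S1 was lowest in HCQ-evolved OVCAR3, and CYP2D6 was at 0 throughout.

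Set against the other P450 genes per kb of exon, CYP2J2 ranked 6 of 58 in HCQ-evolved CCL218, at 2.29 CPM per kb, and 19, 17 and 21 in control CCL218, HCQ-evolved OVCAR3 and control OVCAR3, at 0.145, 0.177 and 0.121 CPM per kb. It made up 0.970 to 1.14% of the summed CPM of these 58 genes in HCQ-evolved CCL218 and 0.0644 to 0.152% in the other libraries. Even after its rise it was a minor P450 transcript, well below CYP2S1 at 113 CPM per kb and CYP51A1, the sterol demethylase of cholesterol synthesis, at 31.8 CPM per kb in the same cells.

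**Figure D2:**
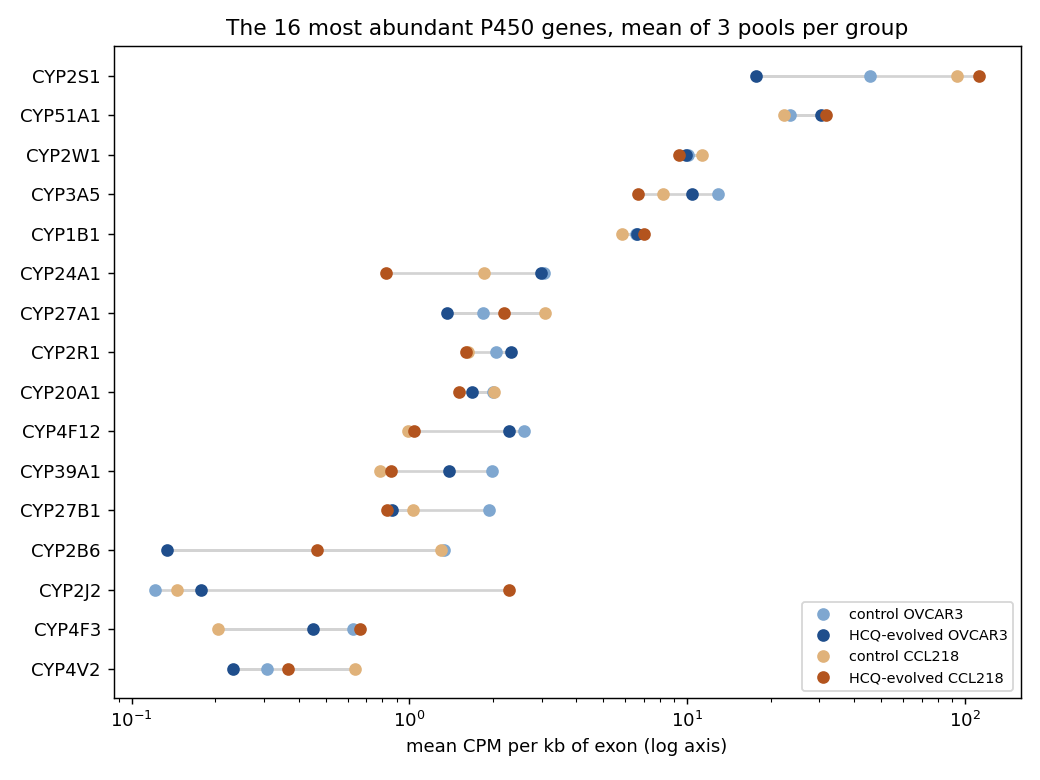
The 16 P450 genes with the highest mean are plotted by their mean CPM per kb of exon on a log axis, 1 point per group of 3 pools. CYP2J2 spans 0.121 to 2.29 CPM per kb between groups and CYP2S1 17.8 to 113.

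The annotated genes within 1 Mb of CYP2J2 with a mean of 0.3 CPM or more in any group were HOOK1, FGGY and NFIA. HOOK1, a microtubule-linked adaptor of endosomal traffic whose body lies 17.0 kb away, was at 54.1 ± 21.6 CPM in control and 73.0 ± 7.25 CPM in HCQ-evolved CCL218 (SD, n = 3), a log2 fold change of 0.43 (adjusted p = 0.405, edgeR's quasi-likelihood test with Benjamini-Hochberg adjustment over all genes tested). FGGY, a carbohydrate kinase gene 82.7 kb away, had 4.59 ± 1.31 and 7.76 ± 0.278 CPM, and all 3 evolved pools were above the controls, as for 18.6% of genes tested. Its log2 fold change of 0.75 (SE 0.222) did not pass the test at an adjusted p of 0.0949. It passed in 3 of 12 alternatives, at a smallest adjusted p of 0.0177. Among these were the fit with plate section as a replicate block (0.79, adjusted p = 0.0343) and that without the control L pool (0.57, adjusted p = 0.0263). NFIA, a transcription factor gene 938.5 kb away, differed by -0.06 (adjusted p = 0.816). C1orf87, 60.5 kb away, had 1 count in 1 of the 12 libraries. In OVCAR3 the log2 fold changes of HOOK1, FGGY and NFIA were 0.48, 0.43 and -0.06, with adjusted p of 0.365, 0.424 and 0.934. Among these 3 neighbours none differed by as much as CYP2J2 did in CCL218.

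**Figure D3:**
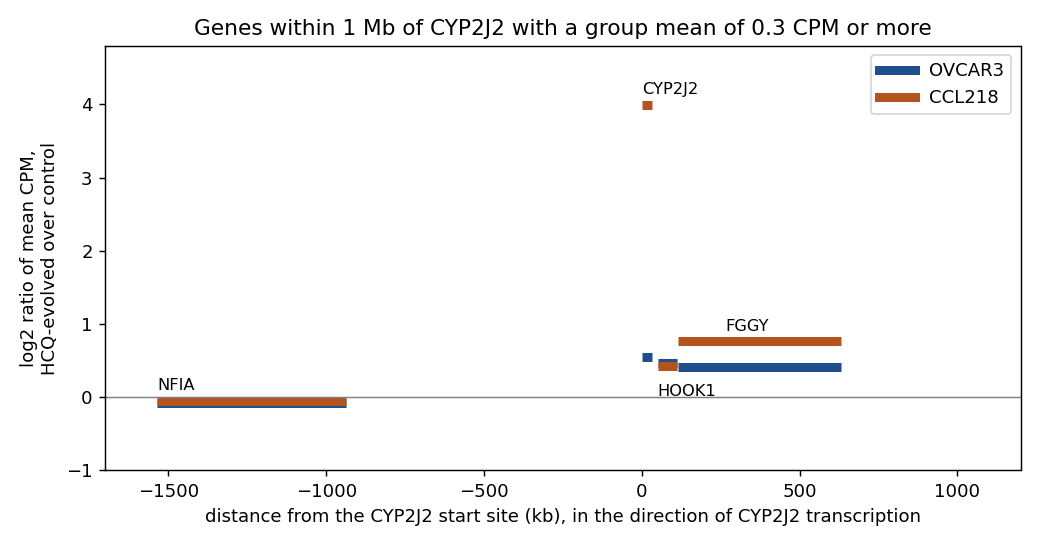
The log2 ratio of mean CPM, HCQ-evolved over control, is drawn as a bar over the body of each gene near CYP2J2 with a mean of 0.3 CPM or more in any group, against distance from the CYP2J2 start site in kb, with OVCAR3 in blue and CCL218 in orange. CYP2J2 stands at 3.99 in CCL218, and no neighbour is above 1.

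The genes whose levels ran most like CYP2J2 were ranked by Pearson's r over log2(CPM + 0.5) of the 12 libraries among 12612 genes. They were ST8SIA6, a sialyltransferase (r = 0.98, Spearman's rho 0.79), CDH17, an intestinal cadherin (0.97, 0.59), SLC6A8, the creatine transporter (0.97, 0.82), ATP1B1, a sodium pump subunit (0.96, 0.65), and NDNF, a secreted neurotrophic factor (0.96, 0.79). The points share libraries, depth and the high values of 3 pools, so these are descriptions with no test. ST8SIA6 was at 8.46 ± 0.866 CPM in HCQ-evolved CCL218 and 0.497 ± 0.0611 CPM in its controls (SD, n = 3), and CDH17 at 52.5 ± 6.66 and 3.84 ± 1.26 CPM. SLC6A8, ATP1B1 and NDNF were 4.22, 2.11 and 5.60 times as high in HCQ-evolved as in control CCL218. Colorectal markers moved in both directions in the same pools. Of 9 tested in CCL218, 4 rose, CDH17 among them, and 2 fell, where 3.82% of all genes rose and 2.64% fell. The list's median log2 fold change was -0.02. CDH17 had been picked by its likeness to CYP2J2, so its rise is a description and does not bear on the comparison with all genes. GPA33, an intestinal surface antigen, rose by 2.86 (adjusted p = 0.000608) and CEACAM5, the carcinoembryonic antigen, by 2.10 (adjusted p = 0.00103) on the log2 scale by edgeR's quasi-likelihood test. The 2 that fell, named after their values were seen, were the stem cell genes ASCL2, by 2.60 (adjusted p = 0.0263), and LGR5, by 1.18 (adjusted p = 0.0210). VIL1 differed by -0.02 (adjusted p = 0.924). Their part in the CYP2J2 result was not tested. Of 6 ovarian markers tested, 0 passed by edgeR in CCL218 (median log2 fold change -0.12) and 0 in OVCAR3 (median 0.01), with 1 and 2 at an unadjusted p under 0.05 and 0 and 1 called by DESeq2. Among all genes, 25.2% in CCL218 and 16.2% in OVCAR3 had such a p, and DESeq2 called 17.7% and 9.05%. With plate section as a replicate block, the mesothelin gene MSLN was called in CCL218 (0.81, adjusted p = 0.0167). In OVCAR3, 2 of 9 colorectal markers fell (list median -0.79), where 1.21% of all genes did, MUC2 by 2.18 and ASCL2 by 1.60 on the log2 scale, with adjusted p of 0.0276 and 0.0456. Both calls were lost without any 1 pool but the evolved R one (adjusted p = 0.0557 to 0.182). With plate section as a replicate block, ASCL2 lost its call (-1.54, adjusted p = 0.0848) and MUC2 kept it (-2.15, adjusted p = 0.0471).

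**Figure D4:**
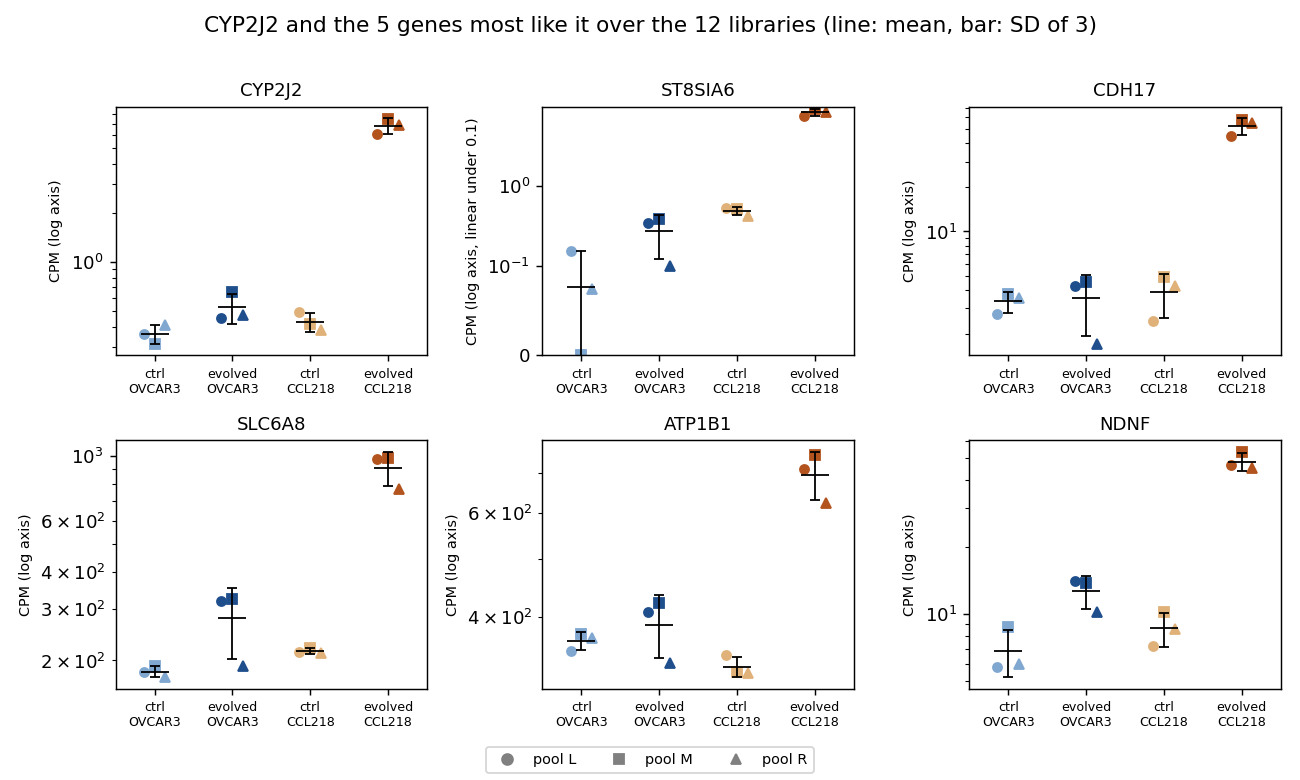
CYP2J2 and the 5 genes with the highest r to it are plotted in CPM on a log axis (linear under 0.1 for ST8SIA6) by group, with a point per pool, a line for the mean and a bar for the SD of 3 pools. In each panel the 3 HCQ-evolved CCL218 pools are the highest of the 12 libraries.

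Among enzymes known to dealkylate HCQ, CYP3A5 (chromosome 7, 99648194 to 99679996, minus strand) was by far the most abundant. Its level was 171, 91.3 and 117 CPM in control OVCAR3, 114, 98.4 and 93.7 in HCQ-evolved OVCAR3, 132, 56.2 and 52.5 in control CCL218 and 70.0, 62.9 and 63.0 in HCQ-evolved CCL218, in pools L, M and R. The control L pool was the highest of its line both times, and evolved and control pools overlapped in both lines. CYP3A5 differed by -0.29 (SE 0.242, adjusted p = 0.610) in OVCAR3 and by -0.30 (SE 0.350, adjusted p = 0.608) in CCL218 on the log2 scale. Without the CCL218 control L pool the CCL218 change turned to 0.26 (adjusted p = 0.0781). Gene deviations in that pool correlated with exon length at a Spearman's rho of -0.38 across genes. This was not particular to that pool, since the other libraries ran from -0.35 in control OVCAR3 R to 0.46 in HCQ-evolved OVCAR3 R. The part of such trends in the CYP3A5 values was not tested.

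CYP3A4, the main hepatic member of its family (chromosome 7, 99756960 to 99784248), had 0 to 27 counts a library. In CCL218 it had 24, 27 and 21 counts in the evolved pools and 5, 5 and 15 in the controls. All 3 evolved pools were higher, at 0.445 ± 0.0815 against 0.184 ± 0.118 CPM (SD, n = 3), a ratio of 2.42. This was under the limit of 1 CPM in 3 libraries for testing. Without that limit, 12.2% of 21730 genes had all evolved CCL218 pools above all controls, and the log2 fold change of 1.28 (SE 0.556) did not pass (adjusted p = 0.242), where 4.62% of genes did. In OVCAR3 it had 7, 0 and 15 counts in controls and 12, 10 and 4 in evolved pools, which overlapped.

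CYP2C8 (chromosome 10, 95036772 to 95069497) had 9, 0 and 2 counts in control OVCAR3, 2, 0 and 0 in HCQ-evolved OVCAR3, 12, 2 and 4 in control CCL218 and 0, 0 and 6 in HCQ-evolved CCL218. A floor of 3 counts corresponds to 0.0502 to 0.0942 CPM, and no difference was detectable at this depth. CYP2D6 (chromosome 22, 42126499 to 42130865) had 0 counts in all 12 libraries, which allows up to that floor in each. Its close paralog CYP2D7 had 0 to 4 counts, and reads that the 2 copies share could be lost or split by the counting. Of the 4 enzymes most tied to HCQ clearance, then, CYP3A5 alone was above 1 CPM. Among entries of 1 to 4 counts in the whole table, 78.9% of 29816 were even numbers, and the floors cover counting error only.

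CYP2S1, an extrahepatic P450 of epithelia that lies on chromosome 19 from 41193210 to 41207539, was the most abundant P450 transcript per kb in every group but HCQ-evolved OVCAR3, where CYP51A1 was ahead. Its level was 161, 129 and 80.8 CPM in control OVCAR3 and 55.0, 43.5 and 46.0 CPM in HCQ-evolved OVCAR3. All evolved pools were below all controls, as for 12.7% of genes tested, at 48.2 ± 6.01 against 124 ± 40.4 CPM (SD, n = 3). The log2 fold change was -1.34 (SE 0.267), with an adjusted p of 0.0541 that just missed the threshold of 0.05. In CCL218 the level was 348, 221 and 193 CPM in controls and 288, 317 and 311 in evolved pools, which overlapped (0.26, SE 0.224, adjusted p = 0.492). Leaving out the CCL218 control L pool gave 0.55 (adjusted p = 0.00279), and leaving out the OVCAR3 evolved R pool gave -1.32 (adjusted p = 0.0399). The OVCAR3 fall was called in 4 of 12 alternatives. It also passed with DESeq2 (-1.35, adjusted p = 0.000189), with no filter (-1.29, adjusted p = 0.0128) and in the fit of all libraries. The change differed between lines by 1.62 (SE 0.370, adjusted p = 0.0793, edgeR's interaction test), and this difference passed in 5 of 17 alternatives. It passed without the OVCAR3 control R pool (1.86, adjusted p = 0.0395) or without the CCL218 control L pool (1.92, adjusted p = 0.0284). It also passed with no filter (1.60, adjusted p = 0.0347), with DESeq2 and with a length and GC trend removed. CYP2S1 made up 10.1 to 12.5% of summed P450 CPM in HCQ-evolved OVCAR3, 16.7 to 28.7% in its controls and 38.5 to 50.8% in CCL218.

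CYP1A1, the classical AhR target (chromosome 15, 74719542 to 74725536), had 8, 0 and 4 counts in control OVCAR3 and 34, 26 and 16 in HCQ-evolved OVCAR3. All evolved pools were higher, at 0.454 ± 0.168 against 0.0934 ± 0.104 CPM (SD, n = 3), a ratio of 4.87. In CCL218 the counts were 12, 4 and 6 in controls and 30, 16 and 28 in evolved pools. These CPM values overlapped by a small margin, since the lowest evolved pool was at 0.292 CPM and the highest control at 0.295 CPM. Neither line reached the limit for testing, and without it the log2 fold changes were 2.29 (SE 0.795, adjusted p = 0.178) in OVCAR3 and 1.47 (SE 0.578, adjusted p = 0.186) in CCL218. Without that limit, 8.74% of 21434 genes had all evolved OVCAR3 pools above all controls, and 2.56% were called.

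CYP1B1, a hydroxylase of estrogens and polycyclic hydrocarbons (chromosome 2, 38066973 to 38109902), was at 22.5 to 50.3 CPM in all libraries. Its means were 39.5 ± 10.3 and 39.7 ± 6.15 CPM in control and HCQ-evolved OVCAR3 and 35.1 ± 11.0 and 42.1 ± 4.66 CPM in CCL218 (SD, n = 3). The pools overlapped in both lines, with log2 fold changes of 0.02 (SE 0.253, adjusted p = 0.979) and 0.26 (SE 0.245, adjusted p = 0.535).

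POR, the electron donor of the microsomal P450 enzymes, lies on chromosome 7 from 75899200 to 75986855. Pools L, M and R had 202, 145 and 170 CPM in control and 202, 214 and 157 CPM in HCQ-evolved OVCAR3, and 154, 108 and 120 CPM in control and 118, 106 and 109 CPM in HCQ-evolved CCL218. These pools overlapped in both lines as well. The log2 fold changes were 0.16 (SE 0.192, adjusted p = 0.723) and -0.20 (SE 0.160, adjusted p = 0.461), and the difference between lines was -0.34 (adjusted p = 0.899).

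In all, 4 of the 8 genes other than CYP2J2 could be tested in each line, and 0 were called in either. Over all genes, edgeR called 1.86% of 12204 in OVCAR3 and 6.46% of 12241 in CCL218. An unadjusted p under 0.05 was found for 1 of the 4 in OVCAR3, CYP2S1, and 0 in CCL218, against 16.2% and 25.2% of all genes. Their median log2 fold change was -0.13 in OVCAR3 and 0.03 in CCL218, against 0.02 and -0.02 over all genes tested. With DESeq2, 1 of the 4 was called in OVCAR3, CYP2S1, and 0 in CCL218, against 9.05% and 17.7% of all genes.

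**Figure D5:**
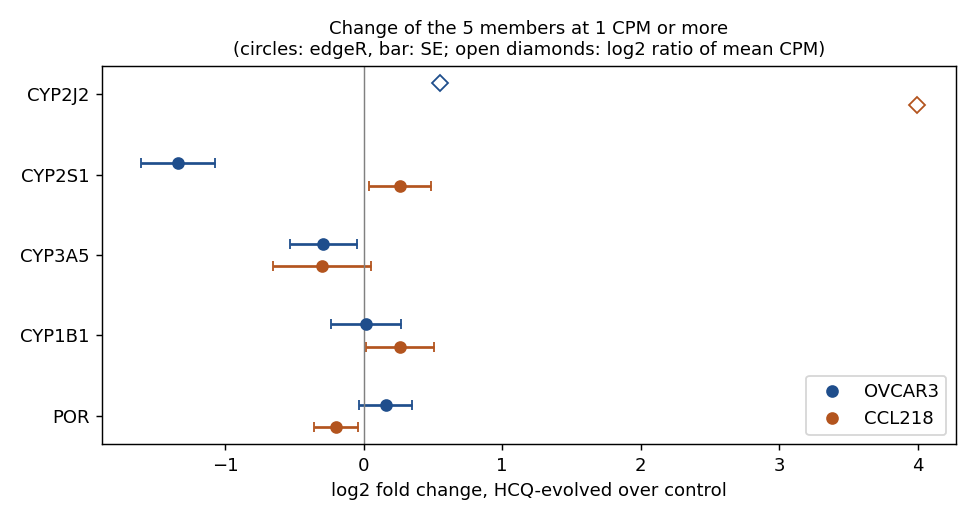
Log2 fold change, HCQ-evolved over control, is plotted for the 4 genes tested in both lines and for CYP2J2, with OVCAR3 in blue and CCL218 in orange. Circles and bars give edgeR's estimate and SE, and open diamonds give the log2 ratio of mean CPM for CYP2J2. CYP2J2 was under 1 CPM in every library but the HCQ-evolved CCL218 ones. CYP2S1 lies at -1.34 in OVCAR3 and 0.26 in CCL218, and the other 3 tested genes lie within 0.30 of 0 in both lines.

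Between control CCL218 and control OVCAR3, 2.05% of 12324 genes were called, 1.10% as lower in CCL218, and 0 of the 4 tested members. Control libraries of the same letter varied together across the lines, with correlations of deviations of 0.28 to 0.89. With the letter as a block 3 of 4 were called, as were 36% of all genes. The labels do not say what such libraries share across lines. CYP2S1 was higher in control CCL218 by 1.05 on the log2 scale (SE 0.312, adjusted p = 0.203, or 3.3e-06 with the block), with no overlap between pools, as for 8.62% of all genes. CYP3A5 was at -0.65 (adjusted p = 0.532, or 0.00061 with the block) and POR at -0.43 (adjusted p = 0.438, or 0.00337 with the block). CYP1B1 differed by -0.16 (adjusted p = 0.810).

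Of 50 other P450 genes, 15 could be tested in OVCAR3, where 0 rose and 1 fell, and 14 in CCL218, where 1 rose and 3 fell. Over all genes tested, 1.21% fell in OVCAR3, and 3.82% rose and 2.64% fell in CCL218. Their medians were -0.23 and -0.29. CYP2B6, which oxidizes many xenobiotics, fell in both lines. Its level was 5.70, 5.15 and 4.09 CPM in control and 0.943, 0.386 and 0.167 CPM in HCQ-evolved OVCAR3, and 5.01, 4.48 and 5.04 CPM in control and 1.83, 2.08 and 1.29 CPM in HCQ-evolved CCL218. Evolved pools were below all controls in both lines, as for 12.7% of genes tested in OVCAR3 and 17.3% in CCL218. The log2 fold changes were -3.30 (SE 0.562, adjusted p = 0.0364) and -1.49 (SE 0.226, adjusted p = 0.0128). In OVCAR3 CYP2B6 reached 1 CPM only in the controls and entered the test through them, so its call there is a description. Without any 1 control pool it could not be tested, and the call was lost without the evolved M pool (adjusted p = 0.122). In CCL218 CYP2B6 was called in 7 of 12 alternatives. The call was lost without the control R pool or any 1 evolved pool (adjusted p = 0.0579 to 0.0762). Settings that kept every library gave an adjusted p of up to 0.0696.

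CYP4F3, a leukotriene hydroxylase, was at 0.934, 1.35 and 1.11 CPM in control and 3.53, 4.12 and 3.34 CPM in HCQ-evolved CCL218. Its evolved pools were above all controls, as for 18.6% of genes tested, and it rose by 1.69 (SE 0.223, adjusted p = 0.00776). That call was lost without the control R pool (adjusted p = 0.0531) or the evolved M pool (adjusted p = 0.0625). In OVCAR3 its log2 fold change was -0.46 (adjusted p = 0.503), and the lines differed by 2.17 (SE 0.356, adjusted p = 0.0161), in a comparison where 0.872% of 12613 genes were called, 0.690% of all tested with a higher change in CCL218. CYP24A1, which inactivates vitamin D, fell in CCL218 by 1.18 on the log2 scale (SE 0.177, adjusted p = 0.0124) from 7.42 to 3.28 CPM, a call lost without the control R pool or any 1 evolved pool (adjusted p = 0.066 to 0.0945). CYP4V2, a fatty acid hydroxylase named here after its values were seen, fell in CCL218 by 0.80 (adjusted p = 0.0373). CYP2C18, in the CYP2C family of CYP2C8, was too low to be tested, with 27, 38 and 28 counts in control and 3, 4 and 0 in HCQ-evolved OVCAR3 and 26, 16 and 20 in control and 2, 2 and 4 in HCQ-evolved CCL218. It too was named after its values were seen.

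Of 12 electron donors and partners besides POR, 0 passed in either line. All of these genes, which hold cytochrome b5, its reductases, the ferredoxins and the progesterone receptor membrane components, were tested, with medians of 0.05 in OVCAR3 and -0.14 in CCL218. By edgeR, 1 and 4 of them had an unadjusted p under 0.05, against 16.2% and 25.2% of all genes, and DESeq2 called 0 and 1, against 9.05% and 17.7%. With plate section as a block, the ferredoxin gene FDX2 was called in CCL218 (-0.82, adjusted p = 0.018). The smallest unadjusted p belonged to CYB5R4 in OVCAR3 (0.55, adjusted p = 0.283) and to PGRMC2 in CCL218 (0.37, adjusted p = 0.118). Of 11 tested genes of heme synthesis and breakdown, 0 were called in either line by edgeR. An unadjusted p under 0.05 was found for 2 in OVCAR3 and 4 in CCL218, against 16.2% and 25.2% of all genes. DESeq2 called 1 and 3, against 9.05% and 17.7%. CPOX, coproporphyrinogen oxidase, was closest, at 72.6 against 33.5 CPM in OVCAR3 (1.12, SE 0.292, adjusted p = 0.104) and at 59.0 against 31.5 CPM in CCL218 (0.90, SE 0.259, adjusted p = 0.0898). Its pools did not overlap in either line, as for 13.0% and 18.6% of genes tested, which were higher throughout. With plate section as a replicate block, 5 of the 11 heme genes were called in CCL218, 3 higher and 2 lower, CPOX among the higher (0.95, adjusted p = 0.0263), as were 14.2% of all genes.

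Of 25 regulators of P450 genes, 20 were tested. In OVCAR3 edgeR called 1, which fell, where 1.21% of all genes did. Of the 20, 5 had an unadjusted p under 0.05, against 16.2% of all genes, and DESeq2 called 3, against 9.05%. The 1 called by edgeR was JUN, an AP-1 subunit, at 2114, 1639 and 1411 CPM in controls and 610, 532 and 338 CPM in evolved pools. It fell by 1.78 on the log2 scale (SE 0.279, adjusted p = 0.0289). The call was lost without any 1 control pool, the evolved L pool or the evolved M pool (adjusted p = 0.0757 to 0.168). It was also lost with plate section as a replicate block (-1.81, adjusted p = 0.0519). In CCL218 edgeR called 0, with 5 at an unadjusted p under 0.05, against 25.2% of all genes. With plate section as a block 5 were called, 3 higher and 2 lower, against 14.2% of all genes. DESeq2 also called 5, against 17.7%. AHRR, the AhR repressor and itself an AhR target, was at 4.38, 3.61 and 3.57 CPM in control and 2.06, 1.02 and 2.03 in HCQ-evolved OVCAR3, and at 4.84, 3.72 and 3.91 in control and 2.50, 1.53 and 1.27 in HCQ-evolved CCL218. Evolved pools were lower than all controls in both lines, as for 12.7% and 17.3% of genes tested, and AHRR did not pass in OVCAR3 (-1.15, adjusted p = 0.129) or in CCL218 (-1.24, adjusted p = 0.0518, or 0.00983 with the block). Of 6 tested AhR targets, AHRR included, 0 were called in either line by edgeR (2 at an unadjusted p under 0.05 in each), with medians of -0.25 and -0.01, and DESeq2 called 1 in each. Among all genes, 16.2% in OVCAR3 and 25.2% in CCL218 had such a p, and DESeq2 called 9.05% and 17.7%. AHR itself was at 62.9 to 184 CPM, and NR1I2, the pregnane X receptor, at 0 to 0.369 CPM.

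In the arachidonic acid and epoxide list, 13 of 20 genes were tested in each line. PTGES, prostaglandin E synthase, was at 4.43, 2.83 and 5.62 CPM in control and 14.9, 17.1 and 18.5 CPM in HCQ-evolved OVCAR3, and at 2.06, 1.13 and 1.66 CPM in control and 7.80, 8.75 and 7.69 CPM in HCQ-evolved CCL218. Evolved pools stood above all controls in both lines, as for 13.0% and 18.6% of genes tested. It rose by 1.98 (SE 0.283, adjusted p = 0.0226) in OVCAR3, a call that was lost without any 1 control pool, the evolved L pool or the evolved M pool (adjusted p = 0.0615 to 0.168), and by 2.32 (SE 0.243, adjusted p = 0.00409) in CCL218, where it passed in every alternative run. PTGS1, cyclooxygenase 1, rose in CCL218 from 5.09 to 14.3 CPM (1.48, SE 0.276, adjusted p = 0.0264, lost without the control R, evolved L or evolved M pool at adjusted p of 0.093 to 0.149). PTGS2, cyclooxygenase 2, fell there from 16.6 to 7.10 CPM (-1.23, SE 0.253, adjusted p = 0.0355, lost without any 1 pool but the control L one, at adjusted p of 0.0764 to 0.197). PTGS2 was called in 6 of 12 alternatives, with an adjusted p of up to 0.195 in settings that kept every library. The soluble epoxide hydrolase EPHX2, which opens the epoxides that CYP2J2 makes, was at 1.09 to 3.01 CPM, and the microsomal EPHX1 at 100 to 191 CPM, and neither passed in either line. Of 21 tested conjugating enzymes out of 43, such as glutathione, sulfo- and glucuronosyltransferases, 0 were called in either line by edgeR, with medians of -0.00 and 0.00, 4 in OVCAR3 and 0 in CCL218 at an unadjusted p under 0.05, and 1 and 0 called by DESeq2. Here and for the hepatocyte markers that follow, 16.2% and 25.2% of all genes had such a p, and DESeq2 called 9.05% and 17.7%. TPMT was closest in OVCAR3 (-0.62, adjusted p = 0.163) and GSTK1 in CCL218 (-0.44, adjusted p = 0.25). Hepatocyte markers were scarce, with 2 of 8 tested in OVCAR3 and 1 in CCL218, and ALB at 0 to 0.0516 CPM. By edgeR 0 were called in either line (1 at an unadjusted p under 0.05 in each), and DESeq2 called 1 in each. In OVCAR3 that gene was TTR, at a mean of 0.317 CPM in evolved and 2.37 CPM in control pools. TTR reached 1 CPM only in the controls and entered the test through them, so its call by DESeq2 is a description. The 1 tested in CCL218, the antitrypsin gene SERPINA1, was called there with plate section as a block (-0.72, adjusted p = 0.0162).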

How the data were processed

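The authors aligned the reads to hg38 with STAR on the UseGalaxy platform, removed duplicates with RmDup and deposited raw counts per gene from featureCounts. Tool versions, the annotation and the strand setting are not given in the sources used here. The groups come from the sample labels, and the members and gene lists were chosen with earlier results of these data known.

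Fits used edgeR 4.0.16 (R 4.3.3): genes at 1 CPM or more in 3 or more libraries of a fit, TMM scaling, the robust quasi-likelihood F test and Benjamini-Hochberg adjustment over all genes tested at 0.05. The lines were fitted apart, the difference between lines as an interaction over 12 libraries, and the controls of the 2 lines against each other. CPM values use TMM factors of all 12 libraries. Each fit was tested on simulated counts, drawn with no effect of plate section or exon length, unlike the data. Of 200 genes changed by 1.5 on the log2 scale, 129 were recovered in OVCAR3, 181 in CCL218, 88 in the interaction and 151 between controls. False calls numbered 9, 9, 5 and 6 in that order.

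Named were every member, list genes that passed (at most 3 per list and line, or the one with the smallest p), genes within 1 Mb of CYP2J2 and the 5 most like it. The replicate block, called plate section above, is the letter L, M or R of a library. By letter, deviations correlated at 0.24 to 0.58 in CCL218 and 0.28 to 0.89 between controls, so letters paired samples there. In OVCAR3 they correlated at -0.73 to 0.45. Gene bodies follow GENCODE, with 91.1% of symbols matched. With 3 against 3 pools, an exact permutation test cannot go below p = 0.1. Alternatives were DESeq2 1.42.0, RLE scaling, no filter, a replicate block, removal of a length and GC trend, 1 fit of all libraries, and leaving out each library.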

Additional observations from a re-analysis of the deposited data

Results flagged for a closer look

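The change after HCQ evolution differed between the lines by the interaction test of edgeR, as CCL218 minus OVCAR3 on the log2 scale, for 5 genes of the lists. CYP4F3 differed by 2.17 (adjusted p = 0.0161, and 0.0535 to 0.0772 with the replicate block or without the CCL218 control R, evolved L or evolved M pool). JUN differed by 2.03 (adjusted p = 0.0357), with a fall in OVCAR3, and the call was lost in 9 of the alternatives (adjusted p = 0.0529 to 0.12). FOS differed by 1.38 (adjusted p just under 0.05), at 516 to 827 CPM in HCQ-evolved OVCAR3 against 1134 to 1343 in its controls, and 1234 to 1554 CPM in HCQ-evolved CCL218 against 847 to 1031, and the call was lost in 11 alternatives (adjusted p = 0.0697 to 0.185). CDH17 differed by 3.71, and since it is also one of the genes picked as most like CYP2J2 over these libraries, this value is a description. CEACAM5 differed by 2.07 (adjusted p = 0.0325) and lost its call with the replicate block and in 11 of 12 fits without 1 library (adjusted p = 0.057 to 0.114).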

How the results depend on the processing

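Counts of called genes moved most. OVCAR3 went from 227 to 1105 with DESeq2, 549 with no filter, 632 once the length and GC trend was taken out, 1080 in 1 fit of all libraries, 81 with the replicate block and 3 to 557 without 1 library. CCL218 went from 791 to 2172 with DESeq2, 1665 with the trend removed, 1744 with the replicate block and 102 to 3047 without 1 library, the highest without the control L pool. The interaction went from 110 to 463, 256, 35 and 38 to 212 in that order (DESeq2, trend, block, 1 library out), and the comparison of controls from 253 to 734, 419, 4442 and 25 to 471, with 394 for no filter. Members called went from 0 to 1 with DESeq2 in OVCAR3, the interaction and the controls, with no filter in OVCAR3 and the interaction, with the trend removed in the interaction and the controls, and in 1 fit of all libraries in OVCAR3, to 3 with the block in the controls, and to 0 to 1 without 1 library. CYP2J2's log2 fold change by edgeR in CCL218 was 3.98, and 3.90 to 4.08 without 1 control pool. Without any 1 evolved pool CYP2J2 fell under the limit for testing, so those fits gave no value. Signs turned for these 3 genes, all within 0.30 of 0 in the reported fits. CYP1B1 in OVCAR3 was -0.03 with the trend removed and -0.16 to 0.24 without 1 library, and between controls -0.34 to 0.07. NFIA was -0.32 to 0.06 in OVCAR3 and -0.15 to 0.04 in CCL218 without 1 library, and 0.06 in CCL218 with the trend removed. CYP3A5 was -0.53 to 0.26 in CCL218 and -0.27 to 0.58 in the interaction without 1 library, and -0.00 there with no filter. Causes were not tested. CYP2D6, CYP2C8, CYP3A4 and CYP1A1 were under the limit for testing in both lines.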
